A study of Mus musculus with 232 samples.

Results

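The cells described here are 55 single mouse embryonic stem cells (ESCs) that lack the Dgcr8 gene and had received a miR-294 mimic, split into 26 cells with and 29 cells without a count for Lin28a. They were defined by the expected count of Lin28a, summed over the sequencing runs of a cell and rounded: cells above 0 form the first set and cells at 0 the second. The whole series held 182 cells in 232 runs. Dgcr8-/- ESCs, which cannot make canonical microRNAs, were grown in serum medium with LIF and 2 kinase inhibitors (2i) and transfected with Dharmafect 1 and a miR-294 mimic (58 cells), with a let-7 mimic (48 cells) or with no mimic (mock, 60 cells), and were captured 24 h later on a Fluidigm C1 chip. The 16 wild-type (WT) ESCs, whose titles start with V6.5, kept Dgcr8. The sources used here describe 1 chip per condition, so that chip and treatment cannot be told apart, and cells in which the targets of the mimic were not lowered had been removed by the authors. The let-7 mimic is called let-7i in the sample titles, let-7b in the series description and let-7c in the study's text. A further 3 miR-294 cells, which carry another title, were left out of the 55 and 1 of them had a Lin28a count, of 49.

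Lin28a is an RNA-binding protein of early embryos and pluripotent cells. It binds the precursors of the let-7 family and, with the uridylyltransferases Tut4 and Tut7 and the exonuclease Dis3l2, steers them to decay instead of maturation, while mature let-7 represses the Lin28a mRNA. It also binds many mRNAs, among them those of ribosomal proteins and splicing factors, and alters their translation. Without Dgcr8 no let-7 precursor is made from the primary transcript, so in these cells the let-7 arm of this loop is absent unless a mimic is given. miR-294 is the main member of the miR-290 cluster, the most abundant microRNAs of mouse ESCs, which drive the passage from G1 to S phase.

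The mimics are shown by the mature sequences of RefSeq (GRCm38.p6), with the seed, bases 2 to 8, in capitals, since the seed sets which mRNAs a microRNA can pair with.
mmu-miR-294-3p: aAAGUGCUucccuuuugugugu
mmu-let-7i-5p: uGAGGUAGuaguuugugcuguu
mmu-let-7c-5p: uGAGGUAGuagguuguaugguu
mmu-let-7b-5p: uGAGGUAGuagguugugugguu
The mature miR-294 sequence lies at chr7:3220691-3220712 on the plus strand. The 3 let-7 names share the seed GAGGUAG, so a target match by seed is the same whichever name is right, and miR-294 has another seed, AAGUGCU.

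Lin28a (ENSMUSG00000050966) lies at chr4:134003330-134018841 on the minus strand of GRCm38. Its 3′ untranslated region, 2775 bases in the longest coding transcript of Gencode M21, was read on the sense strand for the 7 letters that pair with each seed. It held 2 matches to the let-7 letters, ctacctc, which are shown here with the match in capitals because they link the gene that splits the cells to the other mimic.
Lin28a match at base 909 after the stop codon: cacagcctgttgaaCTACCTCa
Lin28a match at base 1547 after the stop codon: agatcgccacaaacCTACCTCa
These lie at chr4:134005189-134005210 and chr4:134004551-134004572. Of 2431 genes whose 3′ untranslated region was within 20% of this length, 14.4% held at least 1 such match. The letters that pair with the miR-294 seed, agcactt, were not in this window, while 29.7% of the same genes held them. These matches describe the letters and do not show pairing in these cells.

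Lin28a was all but absent from the mock cells and was counted in nearly every WT cell, and the miR-294 cells stood between them (plot of Lin28a in every cell). Among mock cells 3 of 60 had a count (5.0%, exact Clopper-Pearson 95% interval 1.04 to 13.9%), of 1, 14 and 99. Among let-7 cells 1 of 48 had a count, of 40. Among the 55 miR-294 cells 26 had a count (47.3%, 33.7 to 61.2%), and among WT cells 15 of 16 had one (93.8%, 69.8 to 99.8%). These intervals cover counting error only.

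**Figure D1:**
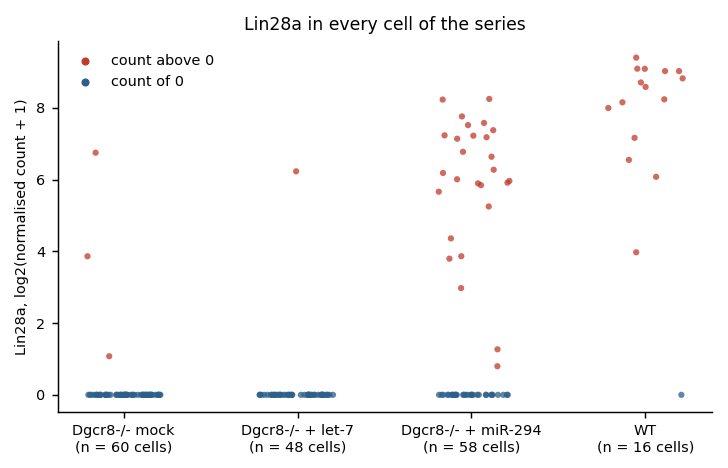
Lin28a in each of the 182 cells, by group, as log2 of the normalized count plus 1; red points have a count above 0 and blue points a count of 0. The 58 miR-294 cells, the 3 with another title included, fall into 27 with and 31 without a count, 57 of 60 mock cells lie at 0, and 8 of 16 WT cells lie above the highest miR-294 cell.

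In the 26 cells the count started at 1 and had a median of 79. Scaled to a common library of 1672156 counts (a normalized count), the level ranged from 0.738 to 304 with a median of 74.2 and a mean of 103 ± 86.4 (SD, n = 26 cells). The WT mean was 326 ± 214 (SD, n = 16 cells), 3.17 times as high, and no cell of the 26 exceeded the WT median of 342. In the authors' FPKM the medians were 13.9 in the 26 cells and 64.1 in WT cells. Just inside the threshold lay 2 cells with counts of 1 and 2, the next had 11, 12 and 17, and the 29 cells outside it were all at exactly 0 in counts and FPKM. These values set the split, so they are descriptions and support nothing further.

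The split was nearly the same in single runs of a library. Of the 18 cells sequenced in 2 runs, 8 had Lin28a in both, 8 in neither, and 2 in the second run alone, with counts of 1 and 2. No cell had it in the first run alone. When every cell was thinned to 984128 counts, the lowest total of the 55, the same rule gave 24 cells with and 31 without.

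All 55 cells came from 1 condition and 1 chip, and the labels name no separate cultures. They therefore count as 1 sample, the cells are not replicates, and no p-value or standard error was derived from them. Exact intervals on shares of cells are given for counting error only. A difference between the sets is given as the ratio of mean normalized counts, with the SD over cells, and as the AUC, the percent of all pairs of 1 cell with and 1 cell without Lin28a in which the former has the higher value. Tied pairs, such as those in which neither cell has a count, are shared equally between the sets. An AUC of 50% means that neither set tends to be higher.

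The sets had similar depth and differed in the number of genes detected, which bears on every result below (plot of depth and genes detected). Total counts had a median of 1421090 in cells with Lin28a (984128 to 3276224) and 1662487 in cells without it (997463 to 3302756), with an AUC of 47.9%. The number of genes with a count had a median of 8194.5 against 7624, with an AUC of 68.4%. After thinning to equal totals it was 7913 against 7341. The share of counts on the 50 highest genes of a cell was lower in cells with Lin28a, with medians of 19.7% and 20.95% and an AUC of 24.3%. The part of these differences in the results was not tested.

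**Figure D2:**
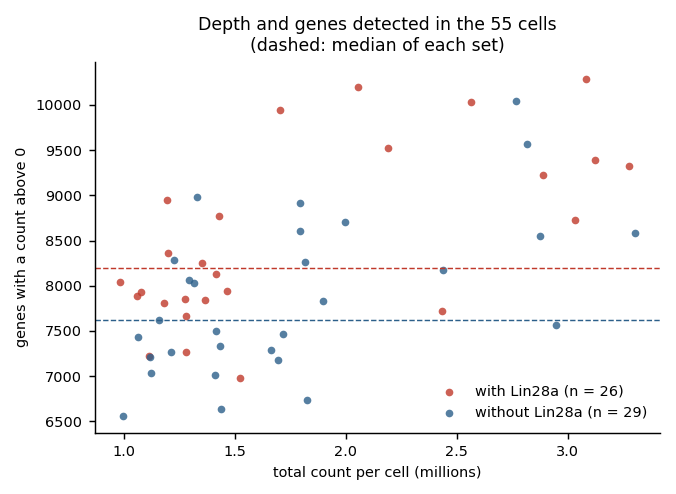
Genes with a count above 0 against the total count for the 55 cells, 26 with (red) and 29 without Lin28a (blue), with the median of genes detected of each set as a dashed line. The medians are 8194.5 and 7624, and the 2 sets cover the same range of totals.

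The cells numbered 20 and 21 by the labels, both with Lin28a (counts of 245 and 198), resembled each other far more than any other pair. Their correlation over genes was 0.985, against 0.714 for the next pair and a median of 0.606, and lay among the values of 0.977 to 0.988 for 2 runs of the same cell. The chi-square per gene was 2.83, against 1.27 to 2.33 between runs of a cell and a median of 86.3 for the 199 pairs next in likeness. The 2 libraries were not within sampling noise of each other, but neither were the 2 runs of a single cell, so whether they are separate cells cannot be told from these values. Both were kept, and the counts below were repeated with their mean as 1 cell.

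Cells of both sets carried the markers of pluripotent cells. Pou5f1, Nanog, Zfp42 and Esrrb had a count in all 55 cells, Sox2 in 54 and Utf1 in 53. None of the 7 fibroblast markers reached a mean count of 5 over the series, and their summed share reached at most 0.000423% in cells with and 0.00248% in cells without Lin28a, with a median of 0 in both. Of 13 markers of other lineages 5 could be compared, and none differed by 2-fold. The highest of these, Krt8, a keratin of trophectoderm and simple epithelia, had a mean of 60.1 ± 94.9 in cells with Lin28a against 101 ± 157 without it.

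Across the transcriptome the sets were close and overlapped for every gene of moderate level. Of 11185 genes compared, Lin28a excluded, 1058 (9.46%) had a mean at least 2-fold higher and 1357 (12.1%) at least 2-fold lower in cells with Lin28a, and 45.7% were above 0 on the log2 scale. Most of the genes past 2-fold had a low mean. Among the 4907 genes with a mean normalized count of at least 50, 104 (2.12%) were at least 2-fold higher and 106 (2.16%) at least 2-fold lower. Over these 4907 genes the AUC ran from 19.2 to 81.2% with a median of 53.2%, and for 0 of them were the sets separate. With the near-identical pair as 1 cell these counts were 1062, 1381, 104 and 110.

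The balance of higher and lower genes depended on how cells were averaged. Calls by ratio of means were 43.8% higher, and by difference of mean log2 values they were 1371 higher against 255 lower, or 84.3% higher. The median over all genes was -0.058 (log2) by the ratio of means and 0.20 by the mean of logs. The second scale gives more weight to the number of cells with a count, and more genes were detected in the cells with Lin28a. The part of this was not tested.

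The genes with the highest AUC among those 2-fold higher are described first, 11 of the 12 that the rule names. Supt20 (ENSMUSG00000027751, chr3:54692807-54728766), a subunit of the SAGA coactivator complex of transcription, had an AUC of 78.5%. Its normalized counts ran from 0 to 370 with a median of 147 in cells with Lin28a, and from 0 to 227 with a median of 29.1 in cells without it. The means were 156 ± 115 (SD, n = 26) and 50.003 ± 62.3 (SD, n = 29), a log2 fold of 1.62. Of the 26 cells 21 lay above the median of the other set, and of the 29 cells 4 lay above the median of the first. Supt20 had a mean of 109 ± 138 in mock cells and of 46.3 ± 55.6 in WT cells.

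Among the others, Rngtt and Tyw1 act on RNA. Rngtt, the enzyme that caps mRNA, had medians of 140 and 17.9 (1.48 to 300 with, 0 to 506 without) and a log2 fold of 1.05. Tyw1, which takes part in the modification of a transfer RNA, had medians of 35.5 and 0 and was counted in 22 of 26 against 11 of 29 cells. In both the sets overlapped, and the highest cell for Rngtt was one without Lin28a.

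A second group serves trafficking, cilia and the cytoskeleton. Arcn1, the delta subunit of the COPI coat, was counted in every cell, with medians of 340 and 99.0 (60.6 to 837 with, 12.3 to 848 without). Lin7c, a PDZ scaffold protein, had medians of 184 and 58.004. Twf2, which binds actin monomers, had medians of 106 and 24.4. Bbs4, a subunit of the BBSome of the cilium, had medians of 78.2 and 0 and was counted in 24 of 26 against 11 of 29 cells, and Mkks, a chaperonin-like protein needed to build that complex, had medians of 83.9 and 27.7. Their AUC lay between 74.8 and 77.98%.

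The remaining 3 were Ccne2, Kyat3 and Spry4. Ccne2, cyclin E2 of the G1 to S passage, had medians of 65.2 and 2.40, and 23 of 26 against 16 of 29 cells had a count. Its log2 fold of 1.33 was 2.76 when cell 44, the highest of the set without Lin28a (820), was left out. Kyat3, a kynurenine aminotransferase, had medians of 57.3 and 0 and a log2 fold of 1.09, which was 2.17 without cell 41 and 0.34 without the cells of both sets with the fewest genes detected, which left 23 and 18. Spry4, an inhibitor of FGF signalling to ERK, had medians of 140 and 10.5 and a log2 fold of 1.39.

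**Figure D3:**
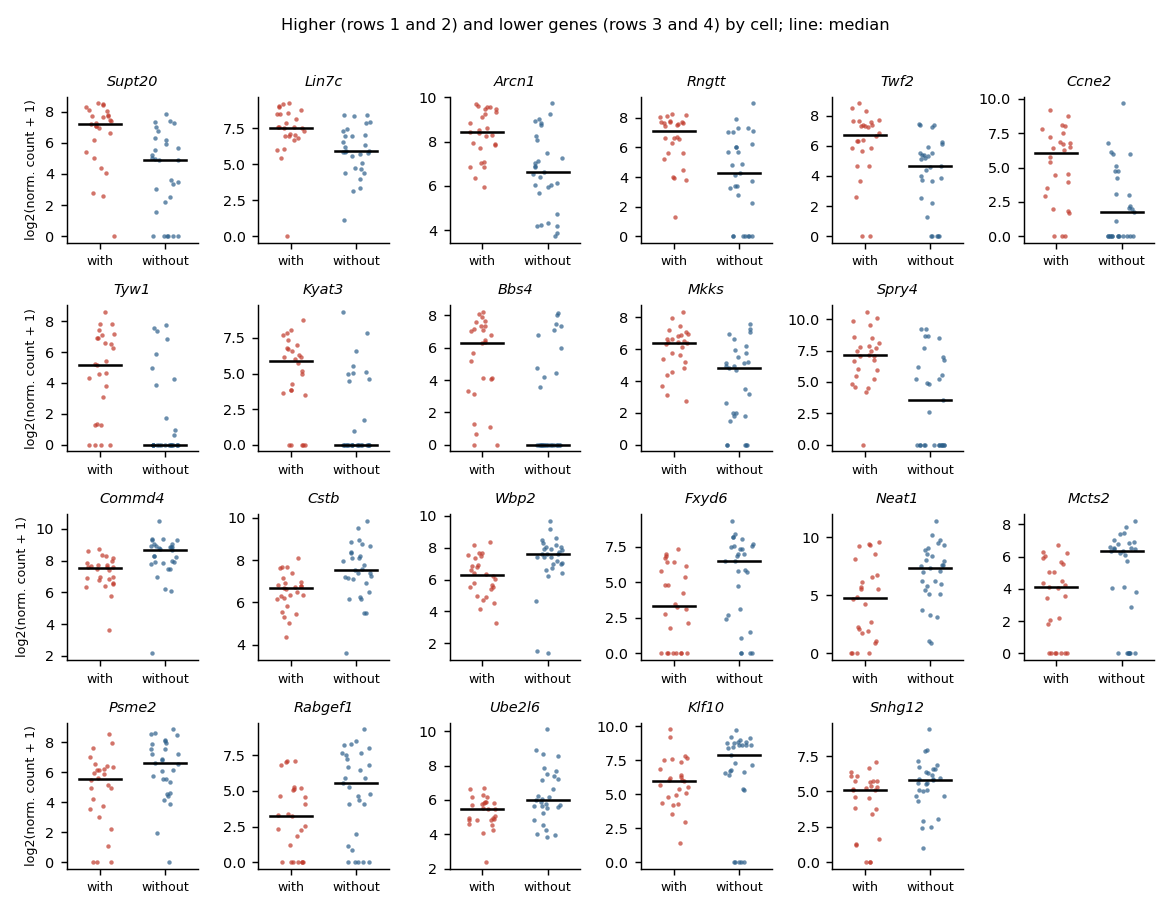
Log2 of the normalized count plus 1 in each of the 26 cells with (red) and 29 cells without Lin28a (blue), for 11 higher genes (upper rows) and 11 lower genes (lower rows), with the median as a line. Points of the 2 sets overlap in every panel, and the medians of Tyw1, Kyat3 and Bbs4 lie at 0 without Lin28a.

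Of the 12 lower genes 11 are described, and among them Commd4 (ENSMUSG00000032299, chr9:57155035-57158331), a COMM domain protein, had the lowest AUC, 21.4%. Its normalized counts ran from 11.4 to 433 with a median of 186 in cells with Lin28a, and from 3.43 to 1479 with a median of 409 in cells without it. The means were 184 ± 103 and 397 ± 279, a log2 fold of -1.10, with a mean of 259 ± 213 in mock and 110 ± 85.9 in WT cells. Only 1 of the 26 cells with Lin28a lay above the median of the other set.

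Members of this set with lysosomal and endosomal roles were Cstb and Rabgef1. Cstb, an inhibitor of cathepsins, had medians of 101 with and 186 without Lin28a (19.7 to 276, and 11.01 to 937). Rabgef1, an exchange factor for Rab5, had medians of 8.58 and 46.8. Fxyd6, a regulator of the sodium pump, had medians of 9.35 and 91.1. For all 3 the mean in WT cells was at least 2-fold below that in mock cells.

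Psme2 and Ube2l6, an activator of the proteasome and the enzyme that conjugates ISG15, belong to the genes known to respond to interferon. Psme2 had medians of 46.1 and 99.1, and Ube2l6 had 43.4 and 63.6, with no cell with Lin28a above 104 and a highest cell of 1114 without it. Wbp2, a coactivator that binds WW domains, had medians of 76.2 and 193, and Klf10, a transcription factor induced by TGF-beta, had 63.4 and 234. Neat1, the RNA that builds paraspeckles, had medians of 26.1 and 160, and Snhg12, a snoRNA host transcript, had 34.2 and 55.6. Mcts2 had medians of 16.1 and 80.4, but it is a retrocopy of Mcts1, so reads of the 2 genes may not have been separable. Wbp2 and Klf10 stayed past 2-fold in only 5 of 14 alternatives of processing.

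The same genes were set beside the contrast of WT over mock cells, whose cells the split did not use. WT and mock differ in genotype and chip, which cannot be told apart, and the study's text does not say whether WT cells were mock-transfected. Of the 12 higher genes 4 were above 0 (log2) in WT over mock, and of the 104 genes 2-fold higher 52 were above 0, against 49.7% of all 4907. Of the 12 lower genes 10 were below 0 and 8 of them were at least 2-fold lower in WT. Of the 106 genes 2-fold lower 68.9% were below 0, against 50.3% of all 4907, and 34 of the 106 were at least 2-fold lower in WT, against 689 of the 4907. These shares are descriptions, and the difference between them was not tested.

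In mock cells the same split gave 3 cells against 57. Of the 12 higher genes 8 were above 0 there and of the 12 lower genes 6 were below 0. Of the 106 genes 2-fold lower 66.04% were below 0 there, against 57.0002% of all 4907, and of the 104 genes 2-fold higher 47.1% were above 0, against 42.98% of all 4907. The 3 cells included the one with a single count.

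Among the pluripotency genes, Zfp42 (Rex1; ENSMUSG00000051176, chr8:43295063-43306980), a zinc finger protein of the naive state, stood out with the lowest AUC of all 4907 genes, 19.2%. It ran from 539 to 2817 with a median of 1454 in cells with Lin28a, and from 1224 to 5394 with a median of 2408 in cells without it. The means were 1547 ± 628 (SD, n = 26) and 2440 ± 875 (SD, n = 29), a log2 fold of -0.66 that ran from -0.73 to -0.54 over 14 alternatives. Mock cells had a mean of 1532 ± 788 and WT cells of 1320 ± 516, so the cells without Lin28a had the highest mean of the 4. Zfp42 was 83.98% of the difference in the summed level of the 6 stem cell markers, whose share of counts had medians of 0.217% and 0.264% (AUC 20.8%).

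Esrrb, another of the stem cell markers, was lower, with means of 298 ± 177 and 379 ± 248 and an AUC of 40.8%. Its medians were 304 and 386, and 5 of the 26 cells with Lin28a lay above the median of the other set. The core factors given next were nearly level. Pou5f1 had means of 423 ± 199 and 399 ± 224, Nanog of 896 ± 431 and 1004 ± 476, Sox2 of 65.97 ± 50.8 and 75.9 ± 50.7, and Sall4 of 1586 ± 611 and 1443 ± 598, each pair less than 1 SD apart. Of the 23 genes of the naive list 6 were above and 17 below 0, with a median log2 fold of -0.24 against -0.058 for all genes. Dppa5a, the most abundant of them in counts, had medians of 2980 and 4131. Klf2, a factor of naive cells, had means of 79.8 ± 59.9 and 176 ± 277 with medians of 71.2 and 93.3, and the highest cell without Lin28a reached 1188. Dppa3 (Stella), a maternal factor, was counted in 10 of 26 cells with and 2 of 29 cells without Lin28a, at a highest level of 192 and 1.73. Its log2 fold of 3.71 was 2.70 without cell 72, which is described below.

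Of 10 genes of the exit from the naive state 2 were 2-fold higher (20%) and 1 lower (10%), against 9.46% and 12.1% of all genes. Sox11, a neural and epiblast factor, had means of 66.9 ± 82.4 and 25.7 ± 64.1 and was counted in 17 of 26 and 13 of 29 cells. Etv5, a target of FGF signalling, had medians of 306 and 171, while its means were 356 ± 283 and 388 ± 495. Otx2, the regulator of the formative state, was counted in 3 and 2 cells, and its log2 fold turned from 1.33 to -1.79 without cell 14 and rested on few cells in both sets. Lef1, a partner of beta-catenin, was 2-fold lower in mean, with medians of 1.44 and 1.17, and its log2 fold of -1.11 was -0.41 without cell 57. The de novo methyltransferase Dnmt3b had means of 165 ± 173 and 113 ± 166 with medians of 108 and 28.6. Lin28b, the paralogue of Lin28a at chr10:45376620-45486395, was counted in 18 of 26 (69.2%, exact interval 48.2 to 85.7%) and 11 of 29 cells (37.9%, 20.7 to 57.7%), while its means were 15.8 ± 24.1 and 15.98 ± 45.7. These intervals cover counting error only and take the near-identical cells 20 and 21 as separate.

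One cell of the set with Lin28a had high counts for part of the 2-cell-like list. Genes of this list, which mark the rare ESCs that resemble the 2-cell embryo, took 2.30% of its counts, and the next highest share among the 55 cells was 0.066%. In this cell, number 72 with a Lin28a count of 17, Zscan4c reached a count of 18181, Zscan4d of 10443 and Zscan4b of 2234. Outside the Zscan4 genes, its counts were 1287 for Gm4340, 1067 for Tmem92, 832 for Gm8300, 377 for Arg2, 168 for Tcstv1 and 133 for AF067061. The other members compared, Usp17la, Usp17lc, Usp17le and Ddit4l, had a count of 0 in this cell. Of 25 listed genes 13 were compared, and some, Dux among them, were not found by symbol. The cell had 6976 genes detected, the fourth lowest of the 55. Of the 13 genes compared 9 were 2-fold higher in cells with Lin28a, with a median log2 fold of 3.08, and without this cell 0 were higher, 5 were lower and the median was -0.44. The Zscan4 genes are near-identical copies, so the division of counts among them is uncertain.

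Most mRNAs of the cytosolic ribosome were slightly lower in cells with Lin28a. Of 81 genes 79 were below 0 and 0 passed 2-fold, with a median log2 fold of -0.27, which lay between -0.35 and -0.21 over 14 alternatives. Rpl4 ran from 3967 to 9117 with and from 4522 to 10342 without Lin28a, with means of 5849 ± 1139 and 7109 ± 1546.5. Rpsa had means of 5107 ± 1311 and 6055 ± 1638, while Rplp0, of the ribosomal stalk, was level at 4464 ± 1397 and 4527 ± 1289. Together these genes took 6.08% (4.78 to 8.63%) and 6.88% (4.87 to 10.7%) of the counts of a cell by their medians, with an AUC of 34.5%. The median was 5.22% in mock and 5.94% in WT cells.

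The shift was not shared by the translation factors as a group. Of 40 elongation and initiation factors and related mRNAs 21 were above and 19 below 0, with a median of 0.009. The most abundant, Eef1a1, the factor that brings transfer RNA to the ribosome, had means of 15508 ± 5949 and 21019 ± 7261 and an AUC of 25.2%, while Npm1, a nucleolar chaperone, had 8869 ± 1592 and 8861 ± 1884. Genes of the ribosome and Eef1a1 have many processed copies, between which reads may be divided. The share of the highest genes was lower in the same cells, as given above, and its part was not tested.

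Each of the 13 mRNAs of the mitochondrial genome had a lower mean in cells with Lin28a, with a median log2 fold of -0.41. This median was -0.080 by mean log2 values and -0.61 without the cells with the fewest genes detected. The mean share of counts was 2.28 ± 0.985% against 2.82 ± 2.22%, but the medians were 2.01% and 1.90% and the AUC was 48.9%. In the set without Lin28a 3 cells lay above 6%, up to 9.74%, and in the other set 0 did. mt-Co3, a subunit of cytochrome oxidase, had means of 3958 ± 1776 and 6041 ± 5400. Of 76 nuclear genes of oxidative phosphorylation 24 were above and 52 below 0 with a median of -0.069, near that of all genes.

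S phase and G2/M genes lay on the higher side in cells with Lin28a (plot of shares per cell). Of 12 G2/M genes 10 were above 0, with a median log2 fold of 0.32, and of 6 S phase genes 5 were above 0, with a median of 0.29, against 45.7% above 0 and a median of -0.058 over all genes. Of the G2/M genes 2 were 2-fold higher (16.7%) and of the S phase genes 0, against 9.46% of all genes. Cdc20, the activator of the anaphase-promoting complex, had medians of 252 and 34.1 (0 to 828, and 0 to 803) and 23 of 26 cells above the median of the other set. Rrm1 and Rrm2, the subunits of ribonucleotide reductase, had means of 656 ± 386 and 408 ± 315, and of 1187 ± 689 and 863 ± 800. Ccnb1, cyclin B1, had means of 1213 ± 769 and 999 ± 821, and Cdkn2d, an inhibitor of CDK4 and CDK6, was counted in 18 of 26 and 9 of 29 cells. Nasp, a histone chaperone, had means of 1174 ± 476 and 859 ± 430.5, with 668 ± 389 in mock and 2131 ± 738 in WT cells. The share of counts had medians of 0.194% and 0.129% for G2/M and 0.175% and 0.125% for S phase, with AUC of 66.8 and 69.1%.

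The phases called by cyclone from pairs of genes were G1 in 2, S in 16 and G2M in 8 of the 26 cells, and G1 in 8, S in 12 and G2M in 9 of the 29 cells. G1 cells were thus 7.69% (exact interval 0.946 to 25.1%) and 27.6% (12.7 to 47.2%), intervals that overlap and cover counting error only. Of 13 G1/S genes 8 were above 0 and 2 were 2-fold higher (15.4%, against 9.46% of all genes), Ccne2 and E2f1, and leaving out 1 cell (number 22) took the median of this list from 0.10 to -0.042. E2f1 was counted in 19 and 17 cells with medians of 1.54 and 1.46. Of 4 G2 genes 3 were above 0 with a median of 0.22, which turned to -0.41 without the cells with the fewest genes detected, and Top2a, the topoisomerase of mitosis, had means of 774 ± 397 and 936 ± 611.

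**Figure D4:**
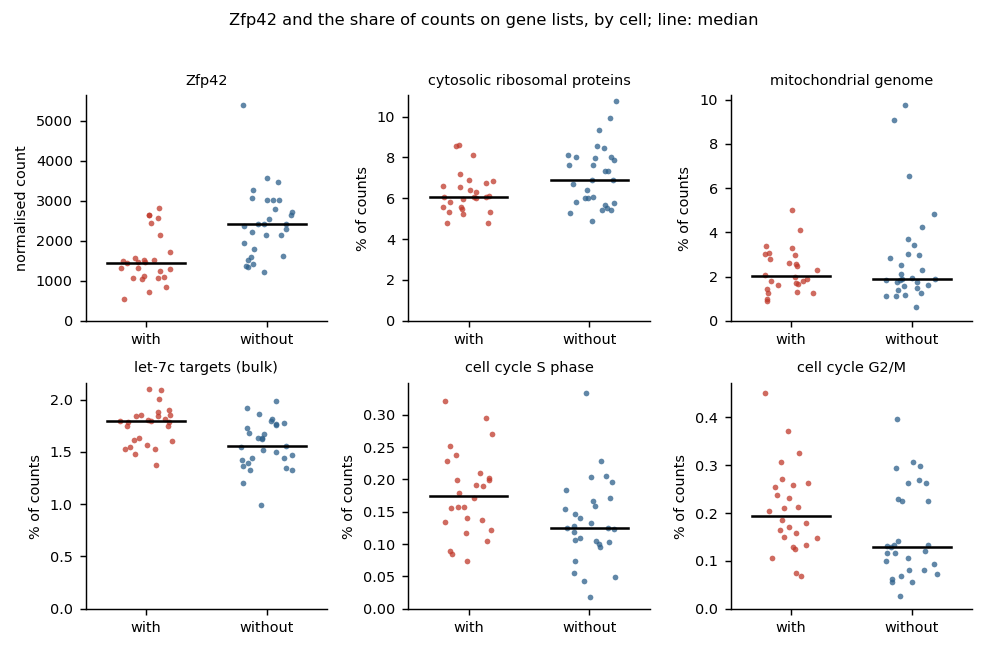
The normalized count of Zfp42 and the percent of counts on 5 gene lists in each of the 26 cells with (red) and 29 cells without Lin28a (blue), with the median as a line; all axes start at 0. Zfp42 has medians of 1454 and 2408, ribosomal proteins 6.08% and 6.88%, and let-7c targets 1.79% and 1.55%, while the 3 highest mitochondrial shares are cells without Lin28a.

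Targets of let-7 took a larger share of counts in cells with Lin28a, largely through a few abundant members, while most single members differed little. Of 169 let-7c targets taken by the study from earlier bulk arrays, 10 were 2-fold higher (5.92%) and 17 lower (10.1%), against 9.46% and 12.1% of all genes, with a median log2 fold of 0.023 that turned negative in 3 of 14 alternatives. Their share of counts had medians of 1.79% (1.38 to 2.10%) and 1.55% (0.993 to 1.98%) with an AUC of 73.1%, and was 1.53% in mock and 1.73% in WT cells. With the near-identical pair as 1 cell the AUC was 72%. The largest parts of the difference in the summed level of these targets came from Eif4g2, a translation initiation factor (17.79%, 1287 against 952), and Rrm2 (17.22%). Next were Golt1b, a Golgi protein (17.02%, 1376 against 1056), Ccnf, cyclin F (15.4%, 597 against 308), and Trim71 (11.1%). These are percents of a net difference, since 82 of the 169 members were below 0. Rrm2 and Ccnf are also in the cell cycle lists above. Of the members past 2-fold those with the highest level were Rnf5, a ubiquitin ligase (medians of 70.3 and 13.6), Rabl3 (22.8 and 1.72), Ggta1, a galactosyltransferase (7.83 and 0), and Cdyl, a chromodomain protein that was lower in mean (medians of 9.71 and 10.8). Lin28a itself was left out of these sums.

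Of 22 classic let-7 targets 13 were above and 9 below 0, with a median of 0.22 and medians of 0.404% and 0.355% of counts. Hmga1, a chromatin protein, had means of 391 ± 188 and 279 ± 214, and Hmga2, its relative and a much used let-7 reporter gene, had 102 ± 116 and 113 ± 125. Igf2bp1, an oncofetal RNA-binding protein, had 547 ± 203 and 426 ± 195. Trim71 (Lin41), a ubiquitin ligase, had medians of 1249 and 1136, against a mean of 809 ± 454 in mock cells. Nras, a small GTPase, had means of 1276 ± 490 and 1110 ± 525, with 738 in mock cells. Plagl2 and Ccnd2 were past 2-fold in opposite directions. The log2 fold of Plagl2, -1.14, was -0.27 without cell 48, and that of Ccnd2, 1.24, was -0.77 without cell 12. Myc had a median of 0 in both sets.

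Targets of miR-294 from the same arrays were low in both sets beside mock cells. Their share of counts had medians of 1.83% (1.54 to 2.19%) with and 1.91% (1.30 to 2.36%) without Lin28a, against 3.32% (2.21 to 4.56%) in mock and 2.41% in WT cells. The 2 sets overlapped widely (AUC 39.9%), and neither set held a cell above the mock median. Of 492 targets 48 were 2-fold higher (9.76%) and 73 lower (14.8%), close to the 9.46% and 12.1% of all genes. Their median log2 fold was -0.19, against -0.058 for all genes, and 61.4% were below 0, against 53.9% of all genes. By mean log2 values the median turned to 0.14. Because cells without lowered targets had been removed, this is a description of retained cells. The 4 members past 2-fold with the highest level were all lower in cells with Lin28a. Lefty2, an inhibitor of Nodal, had means of 29.9 ± 69.8 and 99.2 ± 139, and Cpt1a, which takes part in the entry of fatty acids into mitochondria, had 33.6 ± 69.1 and 106 ± 192. Mpp5, a polarity scaffold, had means of 46.8 ± 57.3 and 100.3 ± 115, and Klf6, a zinc finger factor, had 44.7 ± 83.3 and 97.5 ± 117.

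Partners of Lin28a and the machinery of silencing showed no common direction. Of 20 genes 8 were above and 12 below 0, with 0 past 2-fold upward and 3 downward (15.0%, against 12.1% of all genes). Tnrc6b, a scaffold of silencing, had medians of 5.16 and 21.1 and means of 24.7 ± 36.5 and 67.8 ± 88.1. Xpo5, the exporter of precursors, had means of 85.9 ± 102 and 178 ± 214 with medians of 39.05 and 46.6. The third, Msi1, had means under 7, and its log2 fold of -1.17 was -0.39 without cell 11. Tut4 had means of 56.6 ± 46.2 and 88.3 ± 105, Tut7 of 31.7 ± 59.7 and 29.8 ± 51.6, and Dis3l2 was counted in 12 of 26 and 19 of 29 cells. Of 32 SR proteins and hnRNPs, whose mRNAs Lin28 is known to bind, 10 were above and 22 below 0 with a median of -0.087, and 1 was 2-fold lower, Srsf9 (19.4 ± 15.8 and 45.9 ± 64.7).

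The remaining lists are given by their medians and counts (plot of list members). Gapdh, of glycolysis, had means of 11802 ± 2512 and 13859 ± 4642, and Eno1 of 9367 ± 1877 and 9322 ± 3597. Aldoc, the aldolase C of glycolysis, was 2-fold lower with medians of 12.4 and 64.9, and Pdk1, which restrains pyruvate oxidation, was 2-fold higher with medians of 21.7 and 2.48. Tdh, the threonine dehydrogenase of mouse ESCs, had means of 1523 ± 435 and 1578 ± 805. Hsp90ab1, a chaperone, had 13624 ± 2639 and 15316 ± 2952 with an AUC of 30.2%. Glycolysis as a list had a median of 0.004 over 20 genes, threonine, glycine and one-carbon metabolism -0.005 over 21, chaperones 0.073 over 28 and proteasome subunits -0.017 over 37. Of 26 genes of p53 and cell death 1 was 2-fold higher (3.85%) and 2 lower (7.69%), against 9.46% and 12.1% of all genes, with a median of -0.23. This median turned to 0.068 without cell 4 and to 0.023 by mean log2 values. Bad, a BH3-only death factor, had means of 69.3 ± 53.7 and 27.7 ± 55.8 and an AUC of 77.3%, and Sesn2, a stress-induced sestrin, had 17.4 ± 30.5 and 69.1 ± 93.9. Trp53 itself had medians of 2232 and 2263. Casp8 had a count in 1 cell of the 55, without Lin28a. Of 14 immediate early and stress genes, which respond to handling, 3 were above and 11 below 0, with a median log2 fold of -0.37, which lay between -0.58 and -0.037 over 14 alternatives. Of these 1 was 2-fold higher (7.14%), Junb, and 3 were lower (21.4%), Fos, Trib3 and Atf3, all with a median of 0 in both sets. The log2 fold of Junb, 1.02, was -0.33 without cell 13, and that of Atf3, -1.61, was -0.95 without cell 38. The list took medians of 0.048% and 0.055% of counts.

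**Figure D5:**
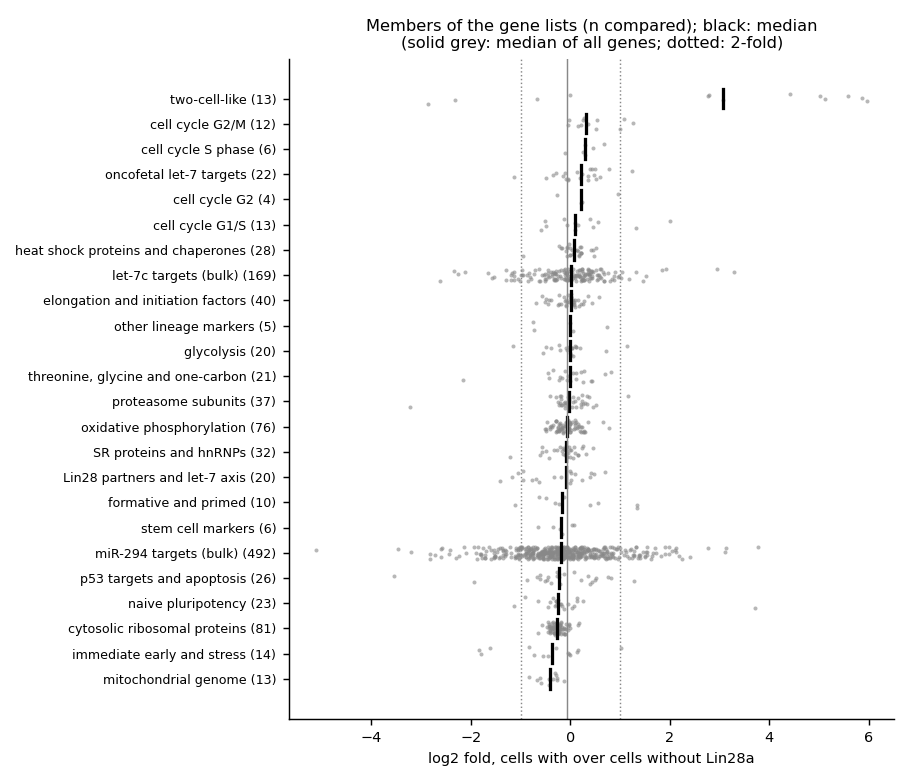
Log2 fold of each member of the gene lists, cells with over cells without Lin28a, with the number of genes compared in brackets; black ticks are list medians, the solid grey line is the median of all 11185 genes (-0.058) and dotted lines mark 2-fold. Ribosomal proteins lie in a narrow band around -0.27, and 9 of the 13 2-cell-like genes lie above 2-fold and 4 below 0, and without cell 72 their median is -0.44.

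The median correlation between cells was higher among cells with Lin28a than among cells without it. With the near-identical pair counted once, the correlation between 2 cells over the 11185 genes (log2 of the normalized count plus 1) had a median of 0.631 (0.527 to 0.701, 300 pairs) within the first set and 0.580 (0.485 to 0.660, 406 pairs) within the second. Between the sets the median was 0.605. Cells in which more genes are detected share more non-zero genes, and the part of this in the difference was not tested.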

How the data were processed

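Single cells were captured and reverse transcribed on the Fluidigm C1, and libraries were made with Nextera XT, which does not mark strand, so reads of antisense neighbours cannot be separated. Capture sites scored by eye as dead or as holding several cells had been discarded, and no doublet caller was run here. The authors quantified Gencode M4 genes (GRCm38) with RSEM 1.2.19, removed cells of low depth or without lowered targets, and deposited for each run an expected count per gene, which is not normalized, and an FPKM. Here a cell with several runs was given the rounded sum of its expected counts. Cells had 513521 to 3979274 counts.

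Genes were kept where the 182 cells averaged 5 or more counts. Counts were scaled with TMM factors (edgeR 4.0.16, R 4.3.3), and the pseudocount in ratios of means was 1. FPKM was used for Lin28a alone. Phases were called with cyclone (scran 1.30.0). A gene was called at a 2-fold ratio of means. The genes named were the 12 with the highest and the 12 with the lowest AUC among those past 2-fold with a mean of at least 50, and up to 4 members per list by level; others in the text, such as Eif4g2, Golt1b, Dnmt3b, Hmga1, Hmga2, Igf2bp1 and Tut4, were chosen after their values were seen. Of the genes this rule names, 3 are not reported here by name. Symbols matched 41674 of 42493 IDs, and positions came from Gencode M21 (GRCm38). The members and lists were chosen with earlier results of these data known. No test was made, since the cells form 1 sample. The ratio and AUC were run on simulated counts with known folds planted in genes with a mean of at least 50. Their spread was set alike for all genes, so this checks the calculation and does not cover genes with many zeros.

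Alternatives were DESeq2 1.42.0 size factors, total counts, no filter, a pseudocount of 10 and splits, thinning and leaving out cells. The pair of like cells, the 2-cell-like cell and the WT contrast were examined after seeing the data.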

Additional observations from a re-analysis of the deposited data

How the results depend on the processing

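All 24 genes named by rule kept their direction in all 14 alternatives, and 9 of them stayed past 2-fold in all. They were chosen by fold and AUC in the same cells that the alternatives reuse, so a kept direction is a description and supports nothing further. The counts of genes 2-fold higher and lower, 1058 and 1357, moved with the averaging of cells and with the handling of low genes. They were 1920 and 2190 with no filter on low counts, 366 and 528 with a pseudocount of 10, and 1371 and 255 by difference of mean log2 values. Leaving out each cell in turn gave 989 to 1115 and 1306 to 1414. Without the cells with the fewest genes detected 18 cells without Lin28a remained, and among genes with a mean of at least 50 the counts were 160 and 153, against 104 and 106. By mean log2 values the latter were 747 and 80. The median over all genes was -0.13 with DESeq2 size factors and -0.001 with total counts.

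Of 25 lists 10 kept the sign of their median in all alternatives, among them ribosomal proteins, the mitochondrial genome, naive pluripotency, S phase and G2/M. By mean log2 values the fold of Plagl2 turned to 0.14, Ccnd2 to -0.16 and Lef1 to 0.055. Without the cells with the fewest genes detected Zscan4c turned to -2.98, Zscan4d to -3.18, Zscan4b to -1.76 and Gldc to 0.94. Leaving out 1 cell at a time gave -0.77 to 1.97 for Ccnd2, -1.79 to 2.31 for Otx2, -2.41 to 7.59 for Zscan4c, -2.60 to 8.60 for Zscan4d, -1.29 to 5.77 for Zscan4b, -2.62 to 0.21 for Gldc and -0.33 to 1.46 for Junb, and the cause was not tested.

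No paired analysis was possible because the replicate numbers of the labels mark sequencing runs of the same cell. The limits are those of 1 chip and 1 condition: a count of 0 does not show that a cell lacks Lin28a, fewer than 3 counts can be missed at this depth, and genes detected moved with the split.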
